A study of Homo sapiens with 12 samples.

Results

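The genes described here are 39 genes of glycolysis, lactate transport and the pentose phosphate pathway, with the pyruvate dehydrogenase kinases and a few oxygen-responsive and glucose-responsive genes that act beside them. They were taken from the count table by gene symbol, and all 39 were among the 58381 genes counted and among the 15836 genes tested. RNA was sequenced from Hs578T and MDA-MB-231, established human breast cancer cell lines of the triple negative subtype, in 4 groups of 3 libraries: Hs578T CD44 WT, Hs578T CD44 KO, MDA-MB-231 CD44 WT and MDA-MB-231 CD44 KO. All cells carried a doxycycline-inducible Cas9 from a lentivirus selected with puromycin. CD44 KO cells were transfected with guides to exons of CD44 and sorted for CD29 without CD44 at the surface, so that they are sorted populations and not clones. CD44 WT cells received the transfection reagent alone and were sorted for both proteins. Cas9 was induced with doxycycline, and whether CD44 WT cells also received it is not stated separately. All cells were starved in low serum before RNA was extracted. The study asked what loss of CD44, a receptor for hyaluronan, changes in the RNA of these lines. Here the question was whether the genes of glucose use moved with it, and whether they moved alike in both lines.

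Cells take up glucose through facilitated transporters, trap it with hexokinases and split it through aldolase into triose phosphates, which the lower enzymes of glycolysis turn into pyruvate. Pyruvate is either oxidised in mitochondria, a step that the pyruvate dehydrogenase kinases restrain, or reduced to lactate, which leaves the cell through monocarboxylate transporters together with a proton. The pentose phosphate pathway branches off at glucose 6-phosphate and provides NADPH and ribose. Most steps have several isoforms encoded by separate genes, and many of them are targets of hypoxia-inducible factors, while TXNIP is a target of the glucose-responsive factor MondoA. Triple negative breast cancer cells are known for high glucose uptake and lactate release.

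Promoters of 4 members, picked by hand, are shown first, since both factors bind short, known motifs. CA9 and TXNIP rose in Hs578T CD44 KO, ENO1 fell in MDA-MB-231 CD44 KO, and ALDOC changed differently in the lines. Each sequence is a RefSeq window of GRCh38.p14 from 250 bases before the transcription start to 50 bases after it, 5′ to 3′ on the strand of the gene. In the first, on the minus strand at chr1:145996530-145996829, capitals mark the only carbohydrate response element found, the site type that MondoA and its partner bind.
TXNIP: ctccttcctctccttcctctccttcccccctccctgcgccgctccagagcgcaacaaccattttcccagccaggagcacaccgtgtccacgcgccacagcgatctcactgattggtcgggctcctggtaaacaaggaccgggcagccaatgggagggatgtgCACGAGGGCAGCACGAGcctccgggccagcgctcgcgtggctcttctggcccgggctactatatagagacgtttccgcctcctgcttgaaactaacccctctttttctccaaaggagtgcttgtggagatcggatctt
In the next, on the minus strand at chr17:28576846-28577145, capitals mark an E-box and the hypoxia response cores ACGTG.
ALDOC: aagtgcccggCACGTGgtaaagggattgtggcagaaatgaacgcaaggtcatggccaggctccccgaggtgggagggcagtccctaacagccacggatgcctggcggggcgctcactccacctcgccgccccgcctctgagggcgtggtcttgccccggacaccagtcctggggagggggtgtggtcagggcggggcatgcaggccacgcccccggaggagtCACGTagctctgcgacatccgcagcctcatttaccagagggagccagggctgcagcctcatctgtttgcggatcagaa
In the window of CA9, on the plus strand at chr9:35673678-35673977, they mark the core ACGTG, read here on the opposite strand.
CA9: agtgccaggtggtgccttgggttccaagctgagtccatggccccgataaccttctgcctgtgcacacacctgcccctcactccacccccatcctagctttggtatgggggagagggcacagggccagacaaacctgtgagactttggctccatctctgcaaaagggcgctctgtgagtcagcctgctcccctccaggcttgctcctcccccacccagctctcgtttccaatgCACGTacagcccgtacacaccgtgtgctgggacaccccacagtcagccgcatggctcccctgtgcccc
In that of ENO1, on the minus strand at chr1:8878637-8878936, they mark the alternative core GCGTG on either strand.
ENO1: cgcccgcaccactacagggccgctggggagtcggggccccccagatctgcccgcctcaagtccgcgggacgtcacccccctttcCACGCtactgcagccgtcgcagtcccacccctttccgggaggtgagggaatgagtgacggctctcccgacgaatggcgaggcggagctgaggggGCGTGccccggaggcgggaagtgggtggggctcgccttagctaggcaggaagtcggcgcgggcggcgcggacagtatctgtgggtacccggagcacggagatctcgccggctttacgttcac
Windows were given for 36 of the 39 members, 68 windows in all, and none was given for SLC2A3, PFKFB2 and SLC16A1. Both strands were searched for the core ACGTG, the alternative core GCGTG, the E-box CACGTG, which contains the first core, and the carbohydrate response element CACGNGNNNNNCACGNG. ACGTG was held by 24 of the 68 member windows (35.3%) and by 21.4% of all 35116 windows, and GCGTG by 28 (41.2%) against 36.5%. The E-box was held by 7 member windows (10.3%) and by 7.26% of all, and the carbohydrate response element by 1 member window, that of TXNIP, and by 20 of all 35116. Of the changed members that are not printed, PFKL held GCGTG alone. EGLN3, which fell in MDA-MB-231 CD44 KO, had a window but held none of these motifs. Windows of the same gene can overlap, and a match is a description of letters and not a bound site.

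CD44 fell in both lines, with log2 fold changes of -4.21 in Hs578T and -3.40 in MDA-MB-231 (adjusted p = 3.16e-12 and 4.57e-11), so that the labels held. Counts were scaled with edgeR's TMM factors and are given as CPM, which are counts relative to the scaled library total. Total counts per library ran from 10257586 to 19725543. Whether the 3 libraries of a group were separate cultures is not stated, so p-values measure the spread between these libraries, which may be technical. A gene was called when its adjusted p in edgeR's quasi-likelihood test (Benjamini-Hochberg over all genes tested) was at most 0.01. Of 5 luminal and HER2 markers, PGR was at 0 in every library, ESR1 and CDH1 were at 0 to 1.15 CPM, ERBB2 was 57.4 to 101 CPM in both lines, and EPCAM was 13.7 to 22.2 CPM in MDA-MB-231 and at most 0.0853 CPM in Hs578T. Of 4 mesenchymal markers, CD44 is given above. VIM was 3730 to 7262 CPM and ZEB1 52.3 to 111 CPM over both lines. FN1 was 2961 to 5232 CPM in Hs578T and 219 to 320 CPM in MDA-MB-231. VIM was called higher in CD44 KO in Hs578T (log2 fold change 0.38, adjusted p = 0.00386) and in MDA-MB-231 (0.43, adjusted p = 0.00253). Of 3 immune and endothelial markers, CD68 was at most 0.691 CPM, PECAM1 was 10.6 to 14.8 CPM in Hs578T, and PTPRC was 0.254 to 0.576 CPM in Hs578T CD44 WT and 3.21 to 4.81 CPM in Hs578T CD44 KO. PTPRC was called higher in Hs578T CD44 KO (log2 fold change 3.33, adjusted p = 3.19e-05). In MDA-MB-231 it was at most 0.446 CPM and not called (-2.32, adjusted p = 0.0988). The summed level of these 3 markers was 10.9 to 13.3 CPM in Hs578T CD44 WT and 16.1 to 19.8 CPM in Hs578T CD44 KO, and their part in the results was not tested. In bulk RNA, fewer cells of a type and less RNA per cell cannot be told apart.

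The members took up similar shares of the counts in the 2 lines, with different isoforms. The members made up 1.80% to 2.07% of the unscaled counts in Hs578T libraries and 1.74% to 2.21% in MDA-MB-231 libraries. Levels of different genes are compared as CPM per kb of exonic length. In Hs578T CD44 WT, GAPDH stood highest with 2016 ± 108 CPM per kb (SD, n = 3), followed by ENO1 with 641 ± 40.3, TPI1 with 353 ± 21.8, LDHB with 313 ± 14.4 and PKM with 303 ± 32.2. In MDA-MB-231 CD44 WT the same genes led, with GAPDH at 2056 ± 239 CPM per kb and ENO1 at 906 ± 101. These genes encode triose phosphate oxidation (GAPDH), the enolase of most tissues (ENO1), triose phosphate isomerase (TPI1), a lactate dehydrogenase subunit (LDHB) and pyruvate kinase (PKM). The weakest member was PDK4 in Hs578T CD44 WT, at 0.117 ± 0.041 CPM per kb, and SLC16A1 in MDA-MB-231 CD44 WT, at 0.275 ± 0.098.

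**Figure D1:**
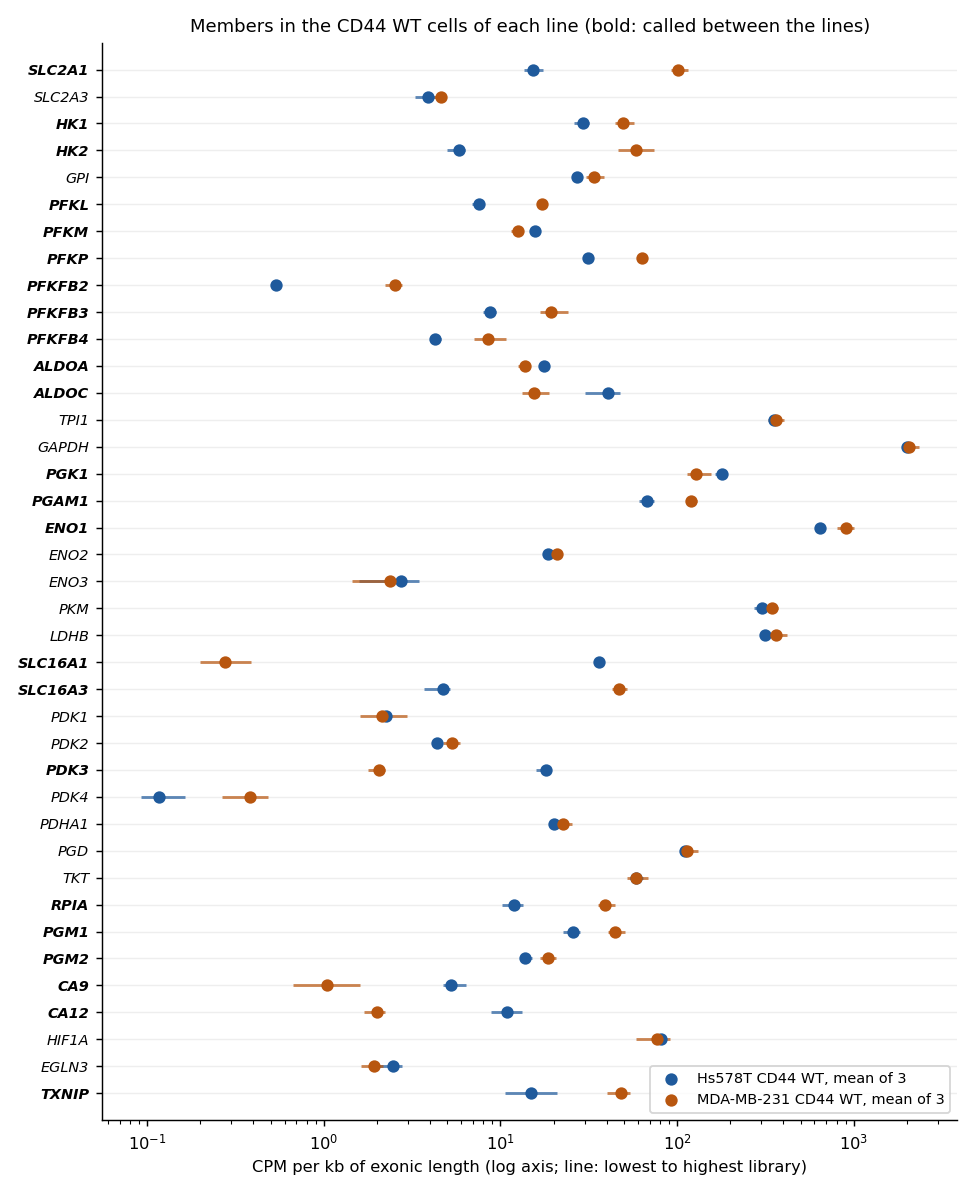
Level of each member in the CD44 WT cells, in CPM per kb of exonic length on a log axis, with genes in pathway order. Points are means of 3 libraries and lines run from the lowest to the highest library. SLC16A1, PDK3, HK2 and SLC16A3 lie far apart between the lines, while GAPDH, TPI1, TKT and PGD nearly coincide.

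Between the CD44 WT cells of both lines, 23 of the 39 members were called (59.0%), against 61.5% of all genes tested (32.2% higher and 29.4% lower in Hs578T), so the members differed between the lines about as often as other genes. Of these, 8 were higher and 15 lower in Hs578T. The monocarboxylate transporters differed most. SLC16A1, which encodes the transporter MCT1, was 190, 191 and 198 CPM in Hs578T CD44 WT and 1.29, 1.05 and 2.05 CPM in MDA-MB-231 CD44 WT, a log2 difference of 7.05 ± 0.171 (SE). SLC16A3, which encodes the exporter MCT4, was 46.7, 46.9 and 33.3 CPM against 419, 385 and 466 CPM, a log2 difference of -3.32 ± 0.18. The libraries of the lines did not overlap for either gene. SLC16A1 thus held 88.5% ± 2.1 (SD, n = 3) of the level of both transporters per kb in Hs578T CD44 WT and 0.573% ± 0.147 in MDA-MB-231 CD44 WT.

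Uptake and the first steps also differed. SLC2A1, the common glucose transporter GLUT1, was 64.1, 70.3 and 82.6 CPM in Hs578T CD44 WT and 438, 462 and 543 CPM in MDA-MB-231 CD44 WT, a log2 difference of -2.74 ± 0.143. SLC2A3, the high-affinity transporter GLUT3, differed by -0.24 ± 0.197 and was not called. Of the hexokinases, HK2, the inducible form, had a log2 difference of -3.32 and HK1 one of -0.75, both called, and HK2 held 16.6% ± 0.471 of the hexokinase level in Hs578T CD44 WT and 53.8% ± 2.78 in MDA-MB-231 CD44 WT. All 3 PFKFB genes, whose enzymes set the activator of phosphofructokinase, were lower in Hs578T, with log2 differences between -2.22 and -0.99. Of the phosphofructokinase subunits, PFKL and PFKP were lower in Hs578T (log2 difference -1.19 and -1.01) and the muscle subunit PFKM higher (0.33).

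PDK3, a pyruvate dehydrogenase kinase, and the carbonic anhydrases were higher in Hs578T. PDK3 was 51.5, 51 and 43.1 CPM in Hs578T CD44 WT and 5.91, 4.79 and 5.97 CPM in MDA-MB-231 CD44 WT, a log2 difference of 3.13 ± 0.202. It held 72.7% ± 1.91 of the kinase level in Hs578T CD44 WT, where MDA-MB-231 CD44 WT had 54.0% ± 7.02 as PDK2. The other kinases and PDHA1 were not called, with PDK4 at a log2 difference of -1.71 ± 0.548 (adjusted p = 0.0113). The membrane carbonic anhydrases CA9 and CA12, which hydrate carbon dioxide outside the cell, were higher in Hs578T by 2.34 ± 0.492 and 2.44 ± 0.154 on the log2 scale, and the aldolase ALDOC by 1.38 ± 0.281. RPIA, which makes ribose 5-phosphate, was lower in Hs578T with a log2 difference of -1.72, and TXNIP, an inhibitor of glucose uptake and of thioredoxin, with -1.69. ALDOA and PGK1 were called higher, and PGM1, PGM2, PGAM1 and ENO1 lower, each by less than 1 on the log2 scale. The other 16 members were not called. The calls of PFKM, PFKFB4, ALDOA, PGK1 and PGM2 were lost in 2 to 4 of the fits that left out 1 library, each time a CD44 WT library of either line (adjusted p up to 0.0416). With the replicate block by label numbers ALDOC had a log2 difference of 0.85 (adjusted p = 0.0587) and PGK1 one of 0.13 (0.333), neither called.

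In Hs578T, loss of CD44 went with higher RNA of 5 members, among them a glucose importer and a lactate transporter. SLC2A3, PFKL, SLC16A1, CA9 and TXNIP rose. No member fell past the threshold in the main edgeR fit or in DESeq2, with 2 below 0 at an unadjusted p under 0.05. Without the filter on low counts, edgeR called 1 member lower. The 5 that rose among 39 members (12.8%) compare with 7.51% of all genes tested that were called, made up of 3.64% higher and 3.86% lower. Without a threshold, 27 members lay above 0 and 12 below, with a median log2 fold change of 0.10, beside 48.8% of all genes above 0, 50.2% below and a median of -0.00162 over all genes. CD44 KO libraries lay wholly above the CD44 WT libraries for 13 members and wholly below for 2 (all genes: 18.7% and 18.6%). The median deviation of the 39 members from the mean of the line (log2) was -0.147 to -0.0439 for CD44 WT and 0.0183 to 0.116 for CD44 KO. In a wider list of 21 hypoxia genes it was -0.164 to -0.0987 in CD44 WT and 0.0127, 0.241 and 0.0938 in CD44 KO replicates 1, 2 and 3. Of the 21, 10 had CD44 KO libraries wholly above and 3 wholly below, beside the same 18.7% and 18.6% of all genes. The part of that list in the changes of SLC2A3 and CA9 was not tested.

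SLC2A3 is listed as ENSG00000059804.15 and lies on chromosome 12 of GRCh38 from 7919230 to 7936275. It was 25.6, 26.4 and 20.1 CPM in Hs578T CD44 WT and 50.5, 68.7 and 46.1 CPM in Hs578T CD44 KO. Every CD44 KO library was above every CD44 WT library, and the log2 fold change was 1.20 ± 0.193 (SE, adjusted p = 0.00061, edgeR). It was the one member whose call held in every alternative run, with adjusted p of at most 0.00504 when a library was left out. The other transporter, SLC2A1, was 64.1, 70.3 and 82.6 CPM against 110, 95.1 and 100 CPM, which did not overlap either. Its log2 fold change of 0.49 ± 0.137 was not called (adjusted p = 0.0253).

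PFKL, the liver subunit of phosphofructokinase, is ENSG00000141959.16 on chromosome 21 from 44300051 to 44327376. It was 61.6, 69.9 and 70.7 CPM in Hs578T CD44 WT and 86.2, 93.0 and 97.5 CPM in CD44 KO, without overlap. Its log2 fold change of 0.45 ± 0.108 passed the threshold barely (adjusted p = 0.00996). SLC16A1, ENSG00000155380.11 on chromosome 1 from 112911847 to 112957013, was 190, 191 and 198 CPM against 265, 296 and 250 CPM, again without overlap. Its log2 fold change was 0.49 ± 0.109 (adjusted p = 0.00681), on top of a level that was already the main one of both lactate transporters in this line. SLC16A3 was 46.7, 46.9 and 33.3 CPM against 33.0, 42.7 and 36.1 CPM, which overlapped.

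CA9, an acid-forming enzyme at the cell surface and a classical hypoxia target, had the largest log2 fold change of the 39 members in Hs578T. It is ENSG00000107159.12 on chromosome 9 from 35673856 to 35681159, and its window with 1 ACGTG is printed above. It was 7.91, 10.7 and 7.87 CPM in CD44 WT and 14.4, 42.2 and 29.5 CPM in CD44 KO. All CD44 KO libraries were above the CD44 WT libraries, but the CD44 KO replicates spread widely, and the log2 fold change was 1.71 ± 0.377 (adjusted p = 0.00631). CA12, the other member of its pair, overlapped, with 64.3, 77.2 and 96.4 CPM against 84.4, 77.9 and 79.4 CPM. TXNIP, ENSG00000265972.5 on chromosome 1 from 145992435 to 145996600, was 38.6, 76.2 and 47.7 CPM in CD44 WT and 74.0, 137 and 119 CPM in CD44 KO. The groups overlapped in 1 library each, and the log2 fold change was 1.03 ± 0.229 (adjusted p = 0.00685).

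Of these 5 calls, 4 were lost in some of the fits that left out 1 library. PFKL was lost without each of the 6 Hs578T libraries and without MDA-MB-231 CD44 WT replicate 3, the MDA-MB-231 CD44 WT library that has no replicate number, or MDA-MB-231 CD44 KO replicate 3 (adjusted p up to 0.0584), and SLC16A1 without each of the 6 Hs578T libraries or MDA-MB-231 CD44 KO replicate 2 (up to 0.0471). CA9 was lost without any CD44 WT library or CD44 KO replicates 2 or 3 of Hs578T (up to 0.0592). It was also lost by DESeq2 (adjusted p = 0.0932) and with robust estimation (0.0152). TXNIP was lost without CD44 WT replicates 1 or 3 or CD44 KO replicates 2 or 3 of Hs578T, MDA-MB-231 CD44 WT replicate 3 or MDA-MB-231 CD44 KO replicate 2 (up to 0.0471), in a fit of Hs578T alone (0.0141) and with robust estimation (0.0161). PFKL was also lost with either replicate block (0.0109 and 0.0102). All these fits kept the direction. With 1 library left out, the log2 fold change ran from 0.39 to 0.50 for PFKL and from 0.42 to 0.55 for SLC16A1. Across the fits with 1 library left out, 3.86% to 10.6% of all genes were called in Hs578T, against 7.51% with all libraries.

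**Figure D2:**
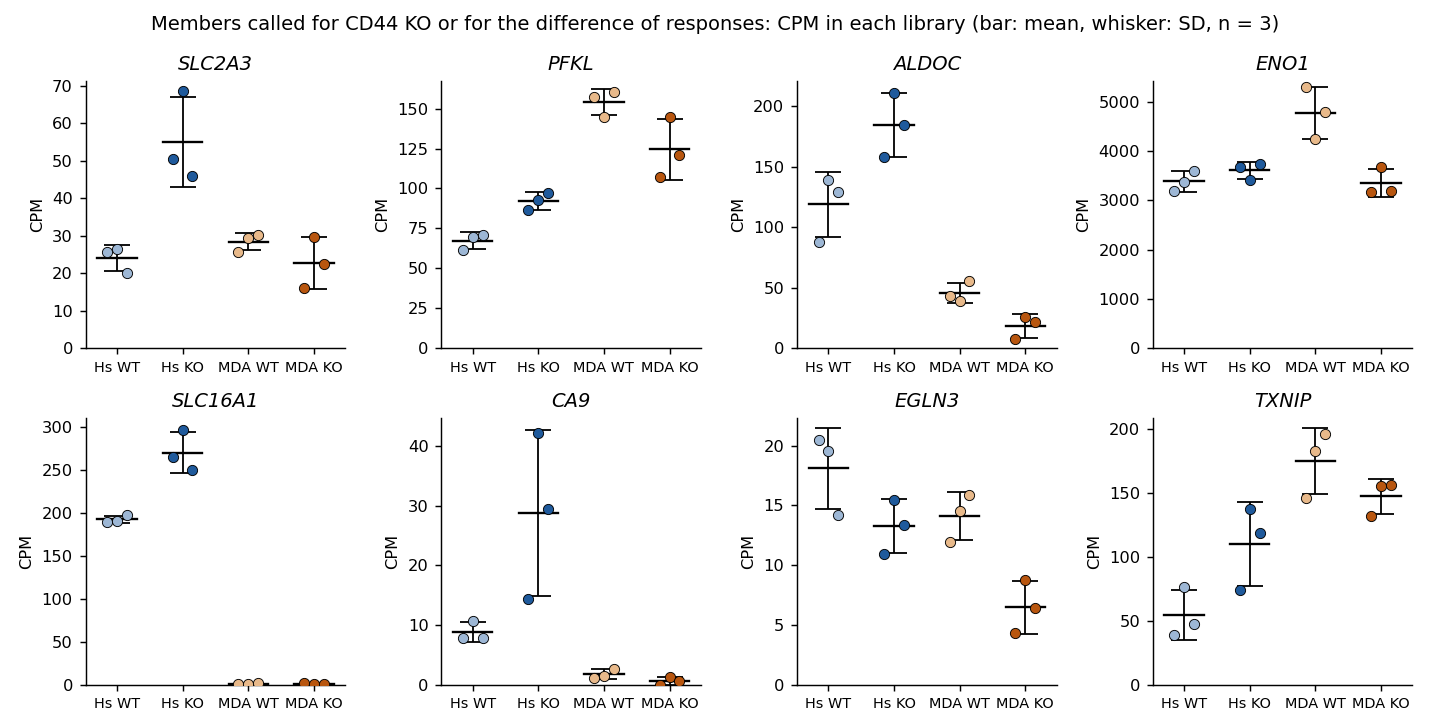
CPM of the 8 members called for CD44 KO in a line or for the difference of the responses, in each of the 12 libraries, each panel with an axis from 0. Points are libraries, bars the mean and whiskers the SD of 3 libraries. SLC2A3 is raised in Hs578T CD44 KO alone, ENO1 and EGLN3 are lowered in MDA-MB-231 CD44 KO, and ALDOC lies higher in Hs578T CD44 KO and lower in MDA-MB-231 CD44 KO.

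Some members that were not called in Hs578T had log2 fold changes as large as those of PFKL and SLC16A1, with larger errors. ENO3, the muscle enolase, had the lowest value of the 39 members, -0.74 ± 0.334 (adjusted p = 0.161), with 13.8, 14.8 and 6.77 CPM in CD44 WT and 6.02, 7.77 and 7.34 CPM in CD44 KO, which overlapped. HK2 was 30.3, 38.0 and 38.4 CPM in CD44 WT and 46.4, 68.7 and 53.5 CPM in CD44 KO, without overlap and with a log2 fold change of 0.67 ± 0.213 that was not called (adjusted p = 0.0495). PGM1, which links glycogen to glycolysis, had 0.48 ± 0.137 (adjusted p = 0.0274) and PFKP, the platelet subunit of phosphofructokinase, 0.26 ± 0.0812 (adjusted p = 0.0409), neither called and both without overlap. The abundant lower enzymes had small values, and log2 fold changes of TPI1, GAPDH, PGK1, PGAM1, ENO1 and PKM ran from -0.02 to 0.21, and that of LDHB was 0.03. RPIA was the member with the smallest adjusted p among those below 0, with 18.9, 22.8 and 24.8 CPM against 16.8, 15.2 and 17.7 CPM and a log2 fold change of -0.42 ± 0.128 (adjusted p = 0.0408). Of the pyruvate dehydrogenase genes, PDK1, PDK2 and PDK4 lay above 0 and PDK3 and the E1 subunit PDHA1 below, none called. HIF1A, the oxygen-regulated subunit of the hypoxia-inducible factor, had 0.33 ± 0.168, and EGLN3, a prolyl hydroxylase that marks this subunit for degradation, -0.45 ± 0.21, neither called.

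In MDA-MB-231 more members lay below 0 than above. ENO1 and EGLN3 fell, and no member rose past the threshold in edgeR or DESeq2, with 2 above 0 at an unadjusted p under 0.05. These 2 of 39 members (5.13%) compare with 4.62% of all genes tested that were called, made up of 2.65% lower and 1.97% higher, so the share called was close to the background. Without a threshold, 29 members lay below 0 and 10 above, with a median log2 fold change of -0.18, beside 51.2% of all genes below 0, 45.0% above and a median of -0.00958 over all genes. CD44 KO libraries lay wholly below the CD44 WT libraries for 9 members and wholly above for 2 (all genes: 13.7% and 11.8%). The median deviation of the 39 members from the mean of the line was 0.0376 to 0.162 for CD44 WT, -0.205 and -0.155 in CD44 KO replicates 1 and 3, and 0.0713 in CD44 KO replicate 2, which was thus above 1 CD44 WT library.

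ENO1 is ENSG00000074800.14 on chromosome 1 from 8861000 to 8879250. It was 5303, 4240 and 4790 CPM in MDA-MB-231 CD44 WT and 3173, 3680 and 3196 CPM in CD44 KO. The groups did not overlap, and the log2 fold change was -0.51 ± 0.0957 (adjusted p = 0.00305), which left CD44 KO cells of this line at the level of both Hs578T groups. EGLN3, ENSG00000129521.13 on chromosome 14 from 33924231 to 34462774, was 11.9, 14.5 and 15.9 CPM against 4.32, 8.74 and 6.42 CPM. It did not overlap either, with a log2 fold change of -1.09 ± 0.227 (adjusted p = 0.00641). Its RNA was also below 0 in Hs578T, and the difference between the lines was not called (0.64 ± 0.309, adjusted p = 0.218).

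Other glycolytic genes lay below 0 in MDA-MB-231 by similar amounts without being called. ALDOC was 43.0, 38.7 and 55.2 CPM in CD44 WT and 7.62, 26.1 and 21.3 CPM in CD44 KO, without overlap, and its log2 fold change of -1.29 ± 0.298 just missed the threshold (adjusted p = 0.0118). GAPDH was 6943, 5613 and 5829 CPM against 4826, 5161 and 4728 CPM, also without overlap (-0.32 ± 0.0879, adjusted p = 0.0297). ALDOA had -0.36 ± 0.109, TPI1 -0.30 ± 0.0923 and PFKL -0.31 ± 0.106, each with CD44 KO libraries wholly below. In the pentose phosphate pathway PGD, the enzyme that releases ribulose 5-phosphate, was 390, 313 and 312 CPM against 287, 272 and 269 CPM (-0.29 ± 0.0931, adjusted p = 0.0615), while TKT and RPIA, which shuffle and isomerise sugars, had -0.15 and -0.16. SLC2A1 and SLC16A3, the main transporters of this line, had -0.31 ± 0.133 and -0.32 ± 0.161, with overlapping libraries.

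Pyruvate kinase did not share this direction. PKM was 3196, 2876 and 2832 CPM in MDA-MB-231 CD44 WT and 3410, 3556 and 3620 CPM in CD44 KO, with CD44 KO libraries wholly above and a log2 fold change of 0.25 ± 0.0882 that was not called (adjusted p = 0.0937). PFKP, with 304, 296 and 315 CPM against 326, 388 and 342 CPM, was the other member with CD44 KO libraries wholly above (0.21 ± 0.0803, adjusted p = 0.126). LDHB had 0.00 ± 0.0948. PDK4 had the highest log2 fold change, 0.76 ± 0.43, at 1.20, 2.19 and 1.78 CPM against 1.19, 3.23 and 4.44 CPM, which overlapped. CA9 was at 1.11, 1.46 and 2.67 CPM in CD44 WT and 0, 1.38 and 0.691 CPM in CD44 KO, which overlapped, with a log2 fold change of -1.14 ± 0.688 (adjusted p = 0.347).

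Hypoxia-linked members varied between libraries of the same group in MDA-MB-231. CD44 KO replicate 2 and the CD44 WT library without a replicate number stood above the others of their groups in the list of 21 hypoxia genes, with a median log2 deviation from the mean of the line of 0.308 and 0.40, against -0.329 to -0.0121 in the other 4 libraries. PFKFB4 was 25.7, 69.9 and 43.3 CPM in the CD44 KO replicates and 47.9, 43.2 and 65.3 CPM in CD44 WT, the last value being the library without a number, and PDK1 was 14.7, 34.7 and 19.1 CPM against 23.8, 27.3 and 44.3 CPM. HK2 and PFKFB3 were also highest in these libraries within their groups. Without CD44 KO replicate 2 the log2 fold change of ENO1 was -0.59 (adjusted p = 0.00493) and that of EGLN3 -1.40 (adjusted p = 0.00341). Without the library that has no number, ENO1 had -0.51 (adjusted p = 0.009) and EGLN3 -0.99, which was not called (adjusted p = 0.0199). In the sample labels, the library without a replicate number and CD44 KO replicate 2 carry consecutive numbers, 3 and 4. In Hs578T, label numbers 1 and 2 belong to CD44 WT replicate 1 and CD44 KO replicate 2. Those were the lowest and the highest library of that line in the hypoxia list, at -0.164 and 0.241. What the label numbers stand for is not given, and what sets these libraries apart was not tested. ENO1 lost its call without CD44 KO replicate 1 or 3 (adjusted p up to 0.0168) and in a fit of MDA-MB-231 alone (0.0259), and EGLN3 in that fit (0.0285) and without CD44 WT replicate 3, CD44 KO replicates 1 or 3, Hs578T CD44 WT replicate 2 or Hs578T CD44 KO replicate 3 (up to 0.025).

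**Figure D3:**
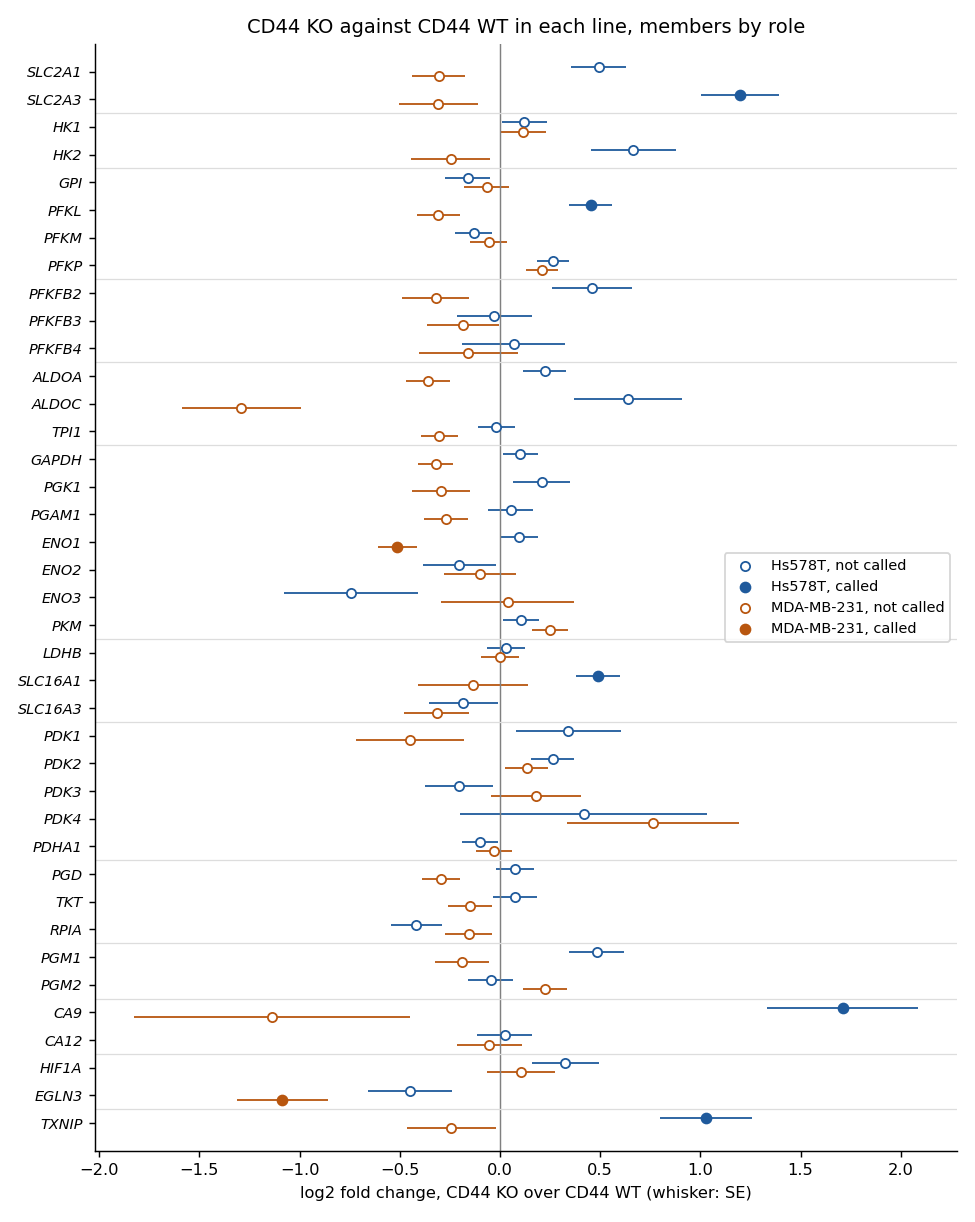
Log2 fold change from CD44 WT to CD44 KO for the 39 members in each line, ordered from glucose uptake at the top to oxygen and glucose sensing at the bottom, with the SE as whiskers. Filled points passed the threshold of 0.01. Most Hs578T points lie right of 0 and most MDA-MB-231 points left of it, with PKM and PFKP to the right in both.

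The response to CD44 loss was then compared between the lines in the same fit. The change was more positive in Hs578T than in MDA-MB-231 for SLC2A3, PFKL and ALDOC, and 0 members differed in the opposite direction, by edgeR, by DESeq2 or at an unadjusted p under 0.05. These 3 of 39 (7.69%) compare with 4.12% of all genes tested, made up of 2.33% with a more positive change in Hs578T and 1.79% with a more negative one. The difference of log2 fold changes was 1.51 ± 0.276 for SLC2A3 (adjusted p = 0.00288), where MDA-MB-231 CD44 KO had 16, 29.7 and 22.4 CPM against 25.8, 29.3 and 30.1 CPM in CD44 WT. It was 0.76 ± 0.151 for PFKL (adjusted p = 0.00485), whose MDA-MB-231 libraries were 157, 145.01 and 160 CPM in CD44 WT and 107, 144.92 and 121 CPM in CD44 KO. For this gene the groups did not overlap in either line, though in MDA-MB-231 the nearest libraries of both groups were almost equal, and CD44 KO lay above CD44 WT in Hs578T and below it in MDA-MB-231.

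ALDOC, the aldolase best known from brain, is ENSG00000109107.13 on chromosome 17 from 28573115 to 28577264. Its promoter window above holds 3 matches to ACGTG, with the E-box counted once on each strand. It was 87.9, 139 and 129 CPM in Hs578T CD44 WT and 158, 211 and 184 CPM in Hs578T CD44 KO. The groups did not overlap in Hs578T (log2 fold change 0.64 ± 0.269, adjusted p = 0.136, not called) and did not overlap in MDA-MB-231, and the difference was 1.93 ± 0.402 (adjusted p = 0.00659). ENO1 stood just outside the threshold with a difference of 0.61 ± 0.135 (adjusted p = 0.0102), followed by SLC2A1 with 0.80 ± 0.191 (0.0153), TXNIP with 1.27 ± 0.319 (0.0198) and ALDOA with 0.58 ± 0.153 (0.0246). For SLC16A1 the difference was not called (0.62 ± 0.297, adjusted p = 0.213), at a level near 1 CPM in MDA-MB-231.

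Of the 39 members, 20 lay above 0 in Hs578T and below 0 in MDA-MB-231, 3 the opposite way, 9 below 0 in both lines and 7 above 0 in both. The 20 include both glucose transporters, HK2, PFKL, both aldolases, GAPDH, PGK1, PGAM1, ENO1, SLC16A1, PDK1, PGD, TKT, PGM1, CA9 and TXNIP. The difference of SLC2A3 was called without any 1 library (adjusted p up to 0.00931). That of PFKL was lost without Hs578T CD44 WT replicates 1 or 2, Hs578T CD44 KO replicates 2 or 3 or MDA-MB-231 CD44 KO replicates 1 or 3 (up to 0.0192). That of ALDOC was lost without each Hs578T library except CD44 WT replicate 3, without MDA-MB-231 CD44 WT replicate 3, the library without a number or MDA-MB-231 CD44 KO replicate 3 (up to 0.0236), and with robust estimation (0.027).

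A proliferation list of 10 genes moved beside these results. Its summed level was 2938 to 3124 CPM in Hs578T CD44 WT and 2642 to 2732 CPM in Hs578T CD44 KO, with all 10 genes below 0 and 0 called by edgeR (4 at an unadjusted p under 0.05, 1 called by DESeq2), and 3135 to 3401 against 3465 to 3817 CPM in MDA-MB-231, with 2 of 10 called higher. The part of cell division in the changes of the members was not tested.

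Isoform shares were compared within each library, which needs no scaling between libraries. Shares of CD44 KO and CD44 WT did not overlap for at least 1 isoform in 8 of 10 families in Hs578T and in 3 of 10 in MDA-MB-231. Single genes had levels that did not overlap in 37.3% and 25.5% of all genes tested, and a family counts more easily, because any of its isoforms suffices and the shares of a pair mirror each other. With 3 libraries against 3 an exact permutation test (two-sided) cannot give a p below 0.1, so no single share can pass 0.05. In Hs578T, SLC2A3 went from 20.5% ± 4.17 (SD, n = 3) to 29.3% ± 5.53 of the level of both glucose transporters, HK2 from 16.6% ± 0.471 to 22.3% ± 2.91 of the hexokinases and PGM1 from 65.0% ± 1.71 to 72.8% ± 1.28 of the phosphoglucomutases. SLC16A1 went from 88.5% ± 2.1 to 92.5% ± 0.581 of the lactate transporters, and CA9 from 33.0% ± 5.96 to 58.4% ± 14.1 of the carbonic anhydrases. In CD44 KO replicate 1 CA9 held 42.8% and CA12 the larger part, and without division by length CA9 held 25.6% in CD44 KO. PDK3 went from 72.7% ± 1.91 to 65.0% ± 3.81 of the pyruvate dehydrogenase kinases, as PDK1 and PDK2 gained share.

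In MDA-MB-231 only the phosphofructokinases, aldolases and phosphoglucomutases had shares that did not overlap. PFKL went from 18.6% ± 0.49 to 14.1% ± 1.02 and PFKP from 67.9% ± 1.00 to 73.7% ± 0.771, while PFKM stayed at 13.5% ± 1.23 and 12.3% ± 1.78. In Hs578T both PFKL (13.8% ± 0.362 to 16.6% ± 0.761) and PFKP (57.4% ± 0.631 to 60.4% ± 0.786) gained, and PFKM went from 28.8% ± 0.275 to 23.0% ± 1.34. ALDOC held 69.2% ± 5.1 of the aldolases in Hs578T CD44 WT and 75.3% ± 1.44 in CD44 KO, against 53.0% ± 3.27 and 35.2% ± 12.1 in MDA-MB-231. PGM1 went from 70.3% ± 1.57 to 63.7% ± 6.84 in MDA-MB-231, opposite to Hs578T. Shares of the enolases and the PFKFB enzymes overlapped in both lines, with ENO1 at 96.7% to 97.5% and PFKFB3 at 62.1% to 64.3% in all 4 groups.

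**Figure D4:**
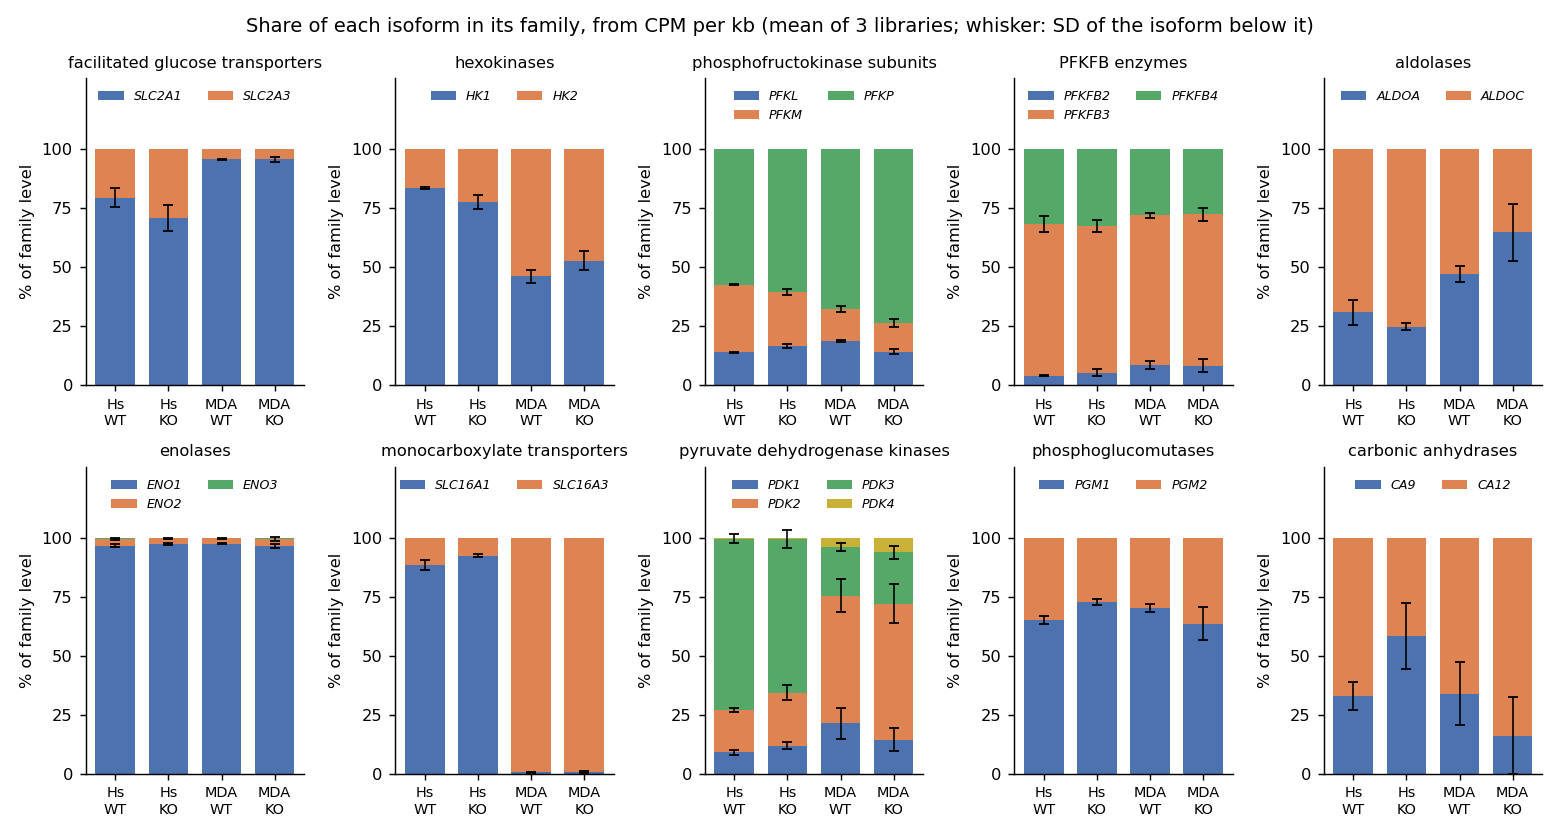
Share of each isoform in the summed level of its family, in percent, from CPM per kb of exonic length. Bars are means of 3 libraries in each of the 4 groups and whiskers the SD of the isoform below them. The lactate transporters are almost wholly SLC16A1 in Hs578T and SLC16A3 in MDA-MB-231, and the mean ALDOC share is higher in Hs578T CD44 KO and lower in MDA-MB-231 CD44 KO.

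The level of ALDOA, and with it the aldolase shares, is uncertain, because 42.3% of its exonic bases are shared on the same strand with another annotated gene and fragments over both were not counted. GAPDH has 65 named pseudogenes, PGAM1 has 13 and PKM 5, and fragments that aligned equally well to a copy were left out, so that the levels of these genes may be understated.

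Other genes of the same pathways were read from a wider list of 88, of which 74 were tested. In Hs578T, 3 of the 74 were called (4.05%, against 7.51% of all genes), all higher. PCK2, which makes phosphoenolpyruvate in mitochondria, was 180 CPM in each CD44 WT library and 336, 328 and 326 CPM in CD44 KO, a log2 fold change of 0.88 ± 0.109 (adjusted p = 6.56e-05) that held without any 1 library. SLC2A4, the insulin-regulated transporter GLUT4, was 3.05, 5.84 and 4.66 CPM against 6.82, 10.5 and 10.1 CPM (1.03 ± 0.23, adjusted p = 0.00696). MLXIP, which encodes MondoA, the factor whose binding element is printed for TXNIP, was 138, 149 and 163 CPM against 196, 188 and 215 CPM (0.41 ± 0.0909, adjusted p = 0.00644). CD44 KO and CD44 WT libraries did not overlap for any of these genes.

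In MDA-MB-231, 4 of the 74 were called (5.41%, against 4.62% of all genes). PDP1, the phosphatase that reactivates pyruvate dehydrogenase, rose from 20.9, 37.1 and 35.8 CPM to 49.98, 57.7 and 60.3 CPM (0.84 ± 0.174, adjusted p = 0.00622). TALDO1, the transaldolase of the pentose phosphate pathway, fell from 341, 223 and 213 CPM to 170, 139 and 137 CPM (-0.80 ± 0.147, adjusted p = 0.00273). PYGL, a glycogen phosphorylase, fell by 0.44 on the log2 scale and the hypoxia-induced hormone ADM by 1.29 (adjusted p = 0.004 and 0.000256), ADM from 153, 128 and 122 CPM to 75.2, 48.8 and 41.6 CPM. Of the 21 hypoxia genes tested, ADM was the only one called in MDA-MB-231, and 0 of 21 were called in Hs578T by edgeR, where 14 lay above 0, 5 had an unadjusted p under 0.05 and DESeq2 called 2. SLC2A4 lost its call without Hs578T CD44 WT replicates 1 or 3, Hs578T CD44 KO replicates 2 or 3 or MDA-MB-231 CD44 KO replicate 2 (adjusted p up to 0.0446). MLXIP lost it without Hs578T CD44 WT replicates 1 or 2, any Hs578T CD44 KO library, MDA-MB-231 CD44 WT replicate 3 or MDA-MB-231 CD44 KO replicate 2 (up to 0.0386). PDP1 lost it without any MDA-MB-231 CD44 KO library, Hs578T CD44 WT replicate 2 or Hs578T CD44 KO replicates 1 or 3 (up to 0.0289), and PYGL and TALDO1 without MDA-MB-231 CD44 KO replicates 2 or 3, PYGL also without MDA-MB-231 CD44 WT replicate 3 (up to 0.0222 and 0.0201).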

How the data were processed

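RNA from 12 libraries, 3 in each of 4 groups, was analysed from 1 deposited table of whole-number counts per gene. The authors aligned paired-end reads with HISAT2 (version 2.1.0) to GRCh38 and made the counts with featureCounts (version 1.6.2) on the GENCODE annotation. Per the file headers, counting was stranded with a minimum mapping quality of 10, and fragments over several genes or places were not counted. The deposited counts carry no normalization. Symbols were found for 57754 of 58381 gene identifiers.

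Tests were limited to genes that exceeded 1 CPM in 2 or more libraries and had 300 nt or more of exonic length, with edgeR 4.0.16 in R 4.3.3 (TMM factors, 4 group means, glmQLFit, glmQLFTest), and genes were called where the Benjamini-Hochberg adjusted p did not exceed 0.01. The methods of the study keep genes under 300 nt, which was read as the reverse. The SE is the log2 fold change divided by the root of F. Adjusted p-values printed without a tool come from this fit. Contrasts were the change from CD44 WT to CD44 KO per line, the difference of both changes, and the CD44 WT cells of both lines. CPM were divided by exonic length in kb for levels between genes and isoform shares. Group labels came from GEO. For 1 MDA-MB-231 CD44 WT library no replicate number was assigned, because its label stood with more than 1 sample. The members and all gene lists were chosen with earlier results of these data known. Members called in either line or in the difference are given in full, all others by ranges and counts, and other pathway genes where called in a line. Alternatives were DESeq2 1.42.0, RLE factors, other filters and thresholds, each line alone, the newer fit, robust estimation, replicate blocks and each library left out. The fit was tested on simulated data. Precision for weak genes is limited by total counts of 10257586 to 19725543 per library.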

Additional observations from a re-analysis of the deposited data

Results flagged for a closer look

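Changes in CD44 KO differed between the lines, tested as a contrast of their own (edgeR, threshold 0.01), for 3 of the 39 members: the difference of log2 fold changes, Hs578T minus MDA-MB-231, was 1.51 for SLC2A3, 0.76 for PFKL and 1.93 for ALDOC. Among the other pathway genes it was 1.10 for PCK2, 0.64 for PDHX, 0.79 for PYGL, 1.59 for ADM, 0.95 for MXI1 and -1.38 for PDP1. CD44 itself differed by -0.81, as it fell further in Hs578T. PDHX, a subunit of the pyruvate dehydrogenase complex, and MXI1, a hypoxia-induced partner of MAX, were called in neither line alone. Of 20 alternative fits, the difference lost its call in 9 for PDHX and in 8 each for MXI1 and ADM. It was lost in 2 for PDP1 and in 0 for PCK2 and PYGL. Groups of 3 libraries are too small for a test of single outlying libraries.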

How the results depend on the processing

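No called log2 fold change changed direction under any alternative. Changes of threshold not counted, 24 of the 49 lost their call under at least 1 alternative. All-gene shares stand in brackets. At an adjusted p of at most 0.05, 10 members were called in Hs578T, 4 in MDA-MB-231 and 10 between the responses (14.2%, 9.59% and 10.5%), with 13 and 10 other pathway genes in Hs578T and MDA-MB-231. When a log2 fold change of 1 or more was required in addition, these counts were 3, 1, 2, 1 and 1 (4.70%, 2.07% and 2.96%), and 14 members differed between the CD44 WT lines (36.7%). Without the filter on low counts, 11 members were called in Hs578T, 10 higher and 1 lower, and 11 between the responses (6.70% and 4.63%). Other pathway genes called were 20 in Hs578T and 10 in MDA-MB-231 (6.70% and 4.62%). DESeq2 called 7 members between the responses (7.59%) and 8 other pathway genes in each line (9.81% in Hs578T and 7.19% in MDA-MB-231). Robust estimation left 3 members in Hs578T (7.60%). Each line fitted alone called 7 members in Hs578T and 0 in MDA-MB-231 by edgeR (10.4% and 2.31%). In MDA-MB-231, 11 members had an unadjusted p under 0.05 in that fit, and DESeq2 on all libraries called 3. Other pathway genes called with each line alone were 11 and 1. Over all genes, these fits called 1525 in Hs578T and 315 in MDA-MB-231, against 1189 and 731 in the main fit. The counts with each line alone lie nearer to those that the study reported.

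With each library left out, 1 to 5 members were called in Hs578T, 0 to 3 in MDA-MB-231, 1 to 6 between the responses and 19 to 24 between the CD44 WT lines (3.86% to 10.6%, 2.24% to 4.83%, 2.44% to 5.11% and 55.4% to 62.2%), with 1 to 9 and 1 to 5 other pathway genes. Isoforms whose shares did not overlap numbered 18 to 21 of 25 in Hs578T and 6 to 11 in MDA-MB-231. Leaving out a library can only hold or raise these numbers of isoforms, so they do not test the result. The count of members called in MDA-MB-231 was 0 by edgeR without CD44 KO replicate 1 or 3 (10 and 11 at an unadjusted p under 0.05). The cause of these moves was not tested.

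Deviations of samples with the same replicate number were at most weakly correlated (r from -0.0957 to 0.164). Small correlations over all genes cannot exclude pairing, so whether the numbers pair the samples was not decided. For samples with consecutive label numbers r was positive in every pair, up to 0.164. In MDA-MB-231, replicates 1 and 3 form the same pairs by either number, so both blocks are not separate checks there. With a replicate block on the 11 numbered libraries, 5 members were called in Hs578T, 0 in MDA-MB-231 (18 at an unadjusted p under 0.05), 4 between the responses and 20 between the CD44 WT lines (5.23%, 1.20%, 1.77% and 44.7%). With a replicate block by consecutive label numbers the counts were 6, 3, 5 and 19 (7.22%, 4.22%, 3.997% and 47.4%), with 8 other pathway genes in Hs578T. Between the CD44 WT lines PFKM and ALDOA lost their call with either block, PFKFB4 and PGM2 with the first and ALDOC and PGK1 with the second. Shares without length moved by more than 1 SD for 70 of 100 values. RLE factors cannot change a share within a library. Low counts limit CA9, PDK4 and SLC16A1 in MDA-MB-231, where the SE of their log2 fold change was 0.688, 0.43 and 0.275.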
